A study of Mus musculus with 6 samples.

Results

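NRF2, encoded by *Nfe2l2*, is the transcription factor that controls the antioxidant program of the cell. The genes described here are *Nfe2l2*, its inhibitor *Keap1* and 8 of its target genes, *Nqo1*, *Gclc*, *Gclm*, *Srxn1*, *Txnrd1*, *Hmox1*, *Osgin1* and *Abcc4*. They were taken by symbol as 10 of the 34745 genes listed in a table of RNA-seq counts, a rule that itself uses no measured value. The 6 libraries came from liver tumors of mice that had received 25 mg/kg DEN at the age of 2 weeks and, starting at 6 weeks, repeated injections of 0.5 ml/kg of 10% CCl4 in oil. Tumors were taken at 26 weeks. DEN (diethylnitrosamine) is a carcinogen activated in hepatocytes, and CCl4 (carbon tetrachloride) is a hepatotoxin that injures the liver through radicals. The 3 tumors of the control group (replicates 7, 66 and 71, labeled WT) were from Prmt3f/f mice, which carry floxed *Prmt3* and no Cre. The 3 tumors labeled KO (replicates 92, 93 and 94) were from Prmt3LKO mice, which carry the same floxed alleles with the *Alb*-Cre transgene. Cre under the albumin promoter deletes *Prmt3* in hepatocytes, so the other cells of a Prmt3LKO tumor keep the gene. Tumors without carcinogen or CCl4 were not part of the comparison, so it addresses the genotype after the same long exposure. Nothing in the labels states that the tumors of a group came from separate mice, and p-values then measure only the spread between these samples.

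KEAP1 is the sensor of the pathway: it holds NRF2 in the cytoplasm and delivers it to a ubiquitin ligase for degradation, and electrophiles or oxidants that modify its cysteines let NRF2 accumulate. NRF2 then pairs with small MAF proteins on antioxidant response elements and raises the transcription of enzymes that make glutathione, reduce peroxides and quinones, and export conjugates. In the liver the pathway responds to reactive products of xenobiotics, and liver tumors can carry mutations that keep it active. Because NRF2 is controlled mainly as a protein, the mRNA of its targets is the usual readout of its activity. Protein was not analysed here.

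The antioxidant response element has the core TGACNNNGC, in which N is any base. It was searched on both strands in windows of 300 bases around RefSeq gene starts (GRCm38.p6, 250 bases before and 50 after the start). The windows that matched upstream of the start are shown because they hold the letters that NRF2 is known to bind. The core is in capitals, each line is written 5′ to 3′ on the strand of the gene, and where the core lies on the other strand its reverse complement is in capitals.
Nfe2l2, chr2:75704885-75704913, gene on the minus strand, core 240 bases before the start: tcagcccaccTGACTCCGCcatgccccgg
Gclm, chr3:122245413-122245441, gene on the plus strand, core on the other strand 134 bases before the start: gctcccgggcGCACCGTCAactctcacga
Txnrd1, chr10:82859104-82859132, gene on the plus strand, core on the other strand 92 bases before the start: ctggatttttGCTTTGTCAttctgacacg
Abcc4, first start, chr14:118706226-118706254, gene on the minus strand, core on the other strand 25 bases before the start: gccccgagagGCGGGGTCAgggcgggccg
Abcc4, second start, chr14:118676936-118676964, gene on the minus strand, core 23 bases before the start: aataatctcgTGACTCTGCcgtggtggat
The *Srxn1* window held the core 29 bases after the start. In all, 5 of the 8 genes found in the promoter table had the core in at least 1 window, and 6 of their 11 windows held it. The same letters were in 12.4% of the 32851 windows of the table and in 14.0% of its 27025 genes. *Nqo1*, *Osgin1* and *Keap1* did not have these letters in the window, which says nothing of elements farther away, and *Gclc* and *Hmox1* were not matched in the table.

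Between 18440244 and 27976598 reads were counted per tumor. Levels are given as CPM (reads of a gene relative to all reads of the library) with the library size scaled by TMM normalization. On library sizes before this scaling, 0 counts in a library would allow up to 0.107 to 0.163 CPM, a limit that covers counting error only. All 10 genes passed the filter on low counts, with at least 249 counts in each tumor. Prmt3f/f replicate 7 stood apart: it held the highest value for 23.7% and the lowest for 23.6% of the 13892 genes tested, against 13.0% to 17.4% and 14.7% to 15.9% in the other tumors. The 7 hepatocyte markers in the table were expressed in every tumor, with *Alb* at 108202 to 164722 CPM (*Tf* was not analysed here). The liver part of the tissue label and the data thus went together, and these markers do not check the tumor part.

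The deleted gene *Prmt3*, an arginine methyltransferase, was at 6.60, 8.49 and 10.2 CPM in Prmt3f/f replicates 7, 66 and 71 and at 2.80, 2.03 and 3.82 CPM in Prmt3LKO replicates 92, 93 and 94. The Prmt3LKO tumors were all below the Prmt3f/f tumors. The log2 fold change of Prmt3LKO over Prmt3f/f was -1.55 (SE 0.29, adjusted p = 0.592 with the quasi-likelihood test of edgeR and Benjamini-Hochberg adjustment over 13892 genes). It passed with DESeq2 (adjusted p = 0.00357) and with the exact test of edgeR (adjusted p = 0.00735).

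No difference between the genotypes was detected for any of the 10 NRF2 pathway genes. With limits of 2-fold and an adjusted p of 0.05, 0 of the 10 were called, beside 0.0% of all genes tested. At an unadjusted p under 0.05, 0 of the 10 were higher and 0 were lower in Prmt3LKO tumors, beside 2.2% and 4.37% of all genes (6.56% in either direction). DESeq2, the exact test of edgeR and limma-voom also called 0 of the 10. For each of the 10 genes the values of the groups overlapped, beside 12.2% of all genes with groups that did not overlap. Among 10 genes a count of 0 is near that share. The median log2 fold change of the 8 targets was 0.28, with 6 of the 8 above 0, and over all genes the median was 0.0004 with 50.1% above 0. The 95% interval of the fold change lay inside a 2-fold difference in either direction for 4 of the 10 genes, *Nfe2l2*, *Keap1*, *Gclc* and *Hmox1*, against 67.5% of all genes, so a change of 2-fold was within the interval for the other 6.

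**Figure D1:**
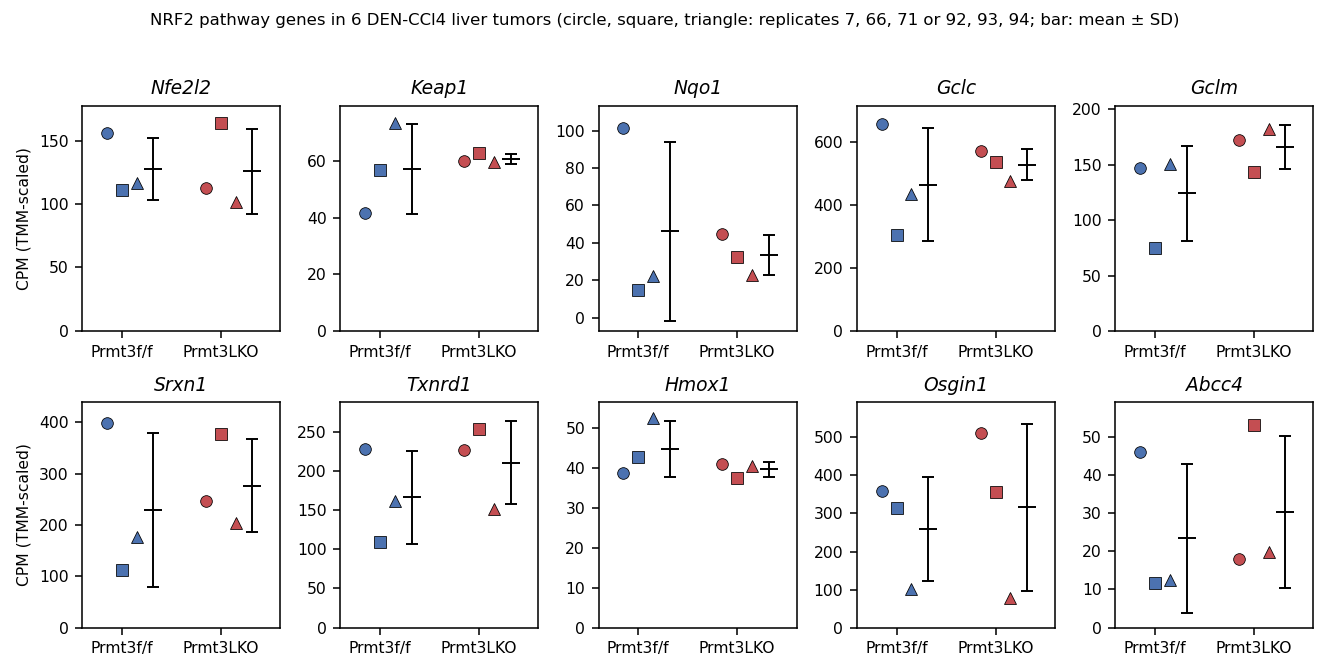
CPM (TMM-scaled, linear axis) of NRF2, KEAP1 and 8 target genes in 3 Prmt3f/f tumors (blue) and 3 Prmt3LKO tumors (red), 1 point per tumor, with the mean ± SD of each group beside the points. The groups overlap in all 10 panels, and the Prmt3f/f point drawn as a circle (replicate 7) is far above the other 2 Prmt3f/f tumors for *Nqo1*, *Srxn1* and *Abcc4*.

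For both regulators the difference between genotype means was smaller than the SD of the Prmt3f/f tumors. *Nfe2l2* (ENSMUSG00000015839, chr2:75675513-75704641, minus strand, GRCm38) was at 155.7, 111.0 and 116.5 CPM in Prmt3f/f tumors and at 112.2, 163.8 and 101.4 CPM in Prmt3LKO tumors, here and below in the order of replicates 7, 66 and 71 and replicates 92, 93 and 94. One tumor of each genotype, replicate 7 and replicate 93, was above the other tumors. The means were 127.7 ± 24.4 and 125.8 ± 33.3 CPM (SD, n = 3), with a log2 fold change of -0.02 (95% interval -0.56 to 0.51, adjusted p = 0.996 in edgeR).

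*Keap1* (ENSMUSG00000003308, chr9:21229730-21239332, minus strand) was at 41.8, 56.9 and 73.6 CPM in Prmt3f/f tumors and at 60.1, 63.0 and 59.8 CPM in Prmt3LKO tumors. The Prmt3LKO tumors lay close together and inside the span of the controls. Its log2 fold change was 0.09 (95% interval -0.40 to 0.57, adjusted p = 0.984 in edgeR).

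Glutathione synthesis begins with glutamate-cysteine ligase, which has a catalytic subunit, *Gclc*, and a modifier subunit, *Gclm*, that makes it more efficient. *Gclc* (ENSMUSG00000032350, chr9:77754535-77794485, plus strand) was at 656.3, 303.2 and 435.9 CPM in Prmt3f/f tumors and at 573.0, 535.5 and 476.7 CPM in Prmt3LKO tumors. The highest and the lowest tumor were both controls, replicates 7 and 66. This gave a log2 fold change of 0.18 (SE 0.28, 95% interval -0.48 to 0.84, adjusted p = 0.968 in edgeR). For *Gclm* (ENSMUSG00000028124, chr3:122245557-122270732, plus strand) the levels were 147.4, 74.8 and 150.9 CPM in Prmt3f/f tumors and 172.1, 143.5 and 182.4 CPM in Prmt3LKO tumors. Control replicate 66 was low and the other 5 tumors were close, with 1 Prmt3LKO tumor below 2 controls. *Gclm* had the largest positive log2 fold change of the 10 genes, 0.42 (SE 0.28, 95% interval -0.22 to 1.06, adjusted p = 0.884 in edgeR), and an exact permutation test of its 6 values, two-sided, gave p = 0.3, where the smallest p it can give is 0.1. Without replicate 66 the log2 fold change of *Gclm* was 0.15 and that of *Gclc* was -0.05.

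The thioredoxin branch is represented by *Txnrd1*, the cytosolic thioredoxin reductase, and *Srxn1*, sulfiredoxin, which restores overoxidized peroxiredoxins. *Txnrd1* (ENSMUSG00000020250, chr10:82859206-82897724, plus strand) was at 227.1, 108.9 and 161.9 CPM in Prmt3f/f tumors and at 225.9, 253.4 and 151.1 CPM in Prmt3LKO tumors. The lowest tumor was control replicate 66, and the lowest Prmt3LKO tumor was below 2 of the 3 controls. For the genotypes the log2 fold change was 0.34 (SE 0.30, 95% interval -0.37 to 1.05, adjusted p = 0.928 in edgeR). *Srxn1* (ENSMUSG00000032802, chr2:152105516-152111376, plus strand) was at 397.9, 112.1 and 176.1 CPM in Prmt3f/f tumors and at 247.6, 377.5 and 204.6 CPM in Prmt3LKO tumors. Control replicate 7 and Prmt3LKO replicate 93 were high, and the other controls were below every Prmt3LKO tumor. *Srxn1* had a log2 fold change of 0.27 (SE 0.46, 95% interval -0.79 to 1.34, adjusted p = 0.968 in edgeR).

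*Nqo1*, the quinone reductase that is the classic NRF2 readout in liver, had the widest range from the lowest to the highest of the 6 tumors, just ahead of *Osgin1*. *Nqo1* (ENSMUSG00000003849, chr8:107388225-107403206, minus strand) was at 101.3, 14.7 and 22.2 CPM in Prmt3f/f tumors and at 44.8, 32.5 and 23.0 CPM in Prmt3LKO tumors. Control replicate 7 was 6.89-fold above control replicate 66, and all 3 Prmt3LKO tumors lay between control replicate 71 and control replicate 7. The means were 46.0 ± 48.0 and 33.5 ± 10.9 CPM (SD, n = 3), with a log2 fold change of -0.46 (95% interval -2.02 to 1.10, adjusted p = 0.967 in edgeR). This was the most negative value among the 10 genes, and it changed sign without replicate 7, to 0.85 (adjusted p = 0.529 in edgeR).

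*Hmox1*, the heme oxygenase that splits heme into biliverdin, iron and carbon monoxide, was the least variable of the 10. *Hmox1* (ENSMUSG00000005413, chr8:75093591-75100596, plus strand) was at 38.9, 42.8 and 52.6 CPM in Prmt3f/f tumors and at 41.0, 37.5 and 40.6 CPM in Prmt3LKO tumors. Control replicate 71 was highest, and control replicate 7 was within the span of the Prmt3LKO tumors. Its log2 fold change was -0.17 (95% interval -0.53 to 0.18, adjusted p = 0.925 in edgeR), and it was negative in all 13 alternative settings.

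*Hmox1* is also known as a gene of macrophages that clear red cells, and macrophage markers had lower values in Prmt3LKO tumors. Of 14 macrophage and Kupffer cell markers, 14 had a negative log2 fold change (median -0.46), 6 were lower at an unadjusted p under 0.05 (beside 4.37% of all genes) and 4 had groups that did not overlap (beside 6.6% lower in this way). Their summed level was 1244, 1478 and 879.1 CPM in Prmt3f/f tumors and 798.0, 616.8 and 876.1 CPM in Prmt3LKO tumors. Control replicate 71, the highest tumor for *Hmox1*, had the lowest sum of the controls. Abundant markers weigh most in such a sum, and no marker was at 0 in all tumors. *Adgre1*, which encodes the F4/80 antigen, was at 41.0, 49.9 and 41.6 CPM in Prmt3f/f tumors and at 34.4, 23.8 and 36.7 CPM in Prmt3LKO tumors. Of the other 3 markers named with it, *Cd68* had a log2 fold change of -0.65, *C1qa* of -0.44 and *Cd163* of -0.91. In bulk tumors fewer cells of a type and less RNA per cell cannot be told apart, and the part of macrophages in the *Hmox1* values was not tested.

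*Osgin1*, an oxidative stress induced gene linked to growth arrest, followed an order of its own. *Osgin1* (ENSMUSG00000074063, chr8:119434124-119446256, plus strand) was at 359.9, 314.4 and 102.2 CPM in Prmt3f/f tumors and at 511.9, 357.8 and 78.7 CPM in Prmt3LKO tumors. Each genotype had 1 low tumor, replicates 71 and 94, and 2 high tumors. A log2 fold change of 0.29 was left between genotypes (SE 0.67, 95% interval -1.28 to 1.86, adjusted p = 0.984 in edgeR).

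*Abcc4* encodes MRP4, an exporter of conjugated bile acids and drugs across the basolateral membrane of hepatocytes. *Abcc4* (ENSMUSG00000032849, chr14:118482692-118706219, minus strand) was at 46.1, 11.6 and 12.6 CPM in Prmt3f/f tumors and at 17.9, 53.3 and 19.9 CPM in Prmt3LKO tumors. Replicate 7 and replicate 93 were high, and the remaining 2 controls were below the remaining 2 Prmt3LKO tumors. The log2 fold change was 0.38 (SE 0.63, 95% interval -1.08 to 1.83, adjusted p = 0.968 in edgeR), and without replicate 93 it was -0.31.

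**Figure D2:**
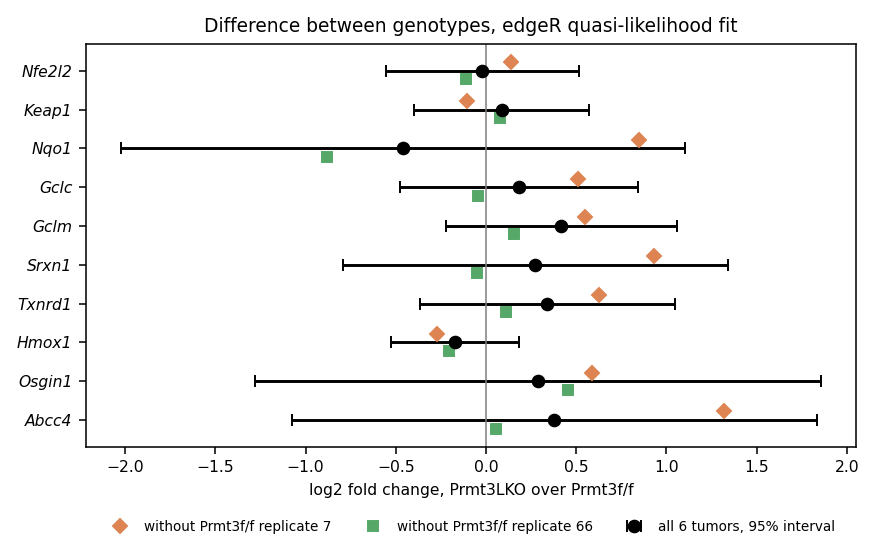
Log2 fold change of Prmt3LKO over Prmt3f/f from edgeR for the 10 genes, with the 95% interval over 6 tumors (black), and the value without Prmt3f/f replicate 7 (orange diamonds) or 66 (green squares). The intervals of the 10 genes all include 0, that of *Nqo1* runs from -2.02 to 1.10, and *Nqo1* moves to 0.85 without replicate 7 and to -0.88 without replicate 66.

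Levels of different genes were compared as FPKM, which corrects for length. *Gclc* was the most abundant at a mean of 145.4 FPKM over 6 tumors (range 86.5 to 197.4) and was above the next gene, *Srxn1*, in 6 of 6 tumors. *Srxn1* had a mean of 70.1 FPKM, *Txnrd1* of 55.2, *Osgin1* of 51.3, *Nfe2l2* of 32.5, *Nqo1* of 25.8, *Gclm* of 17.5 and *Hmox1* of 15.2. From *Srxn1* to *Hmox1* each gene was above its neighbor in only 4 or 5 of the 6 tumors, so the order of these neighbors was not the same in all tumors. *Hmox1* was above *Keap1*, at 7.55 FPKM, in 6 of 6 tumors. *Keap1* was above *Abcc4*, at 4.76 FPKM, in 4 of 6.

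For each of the 8 targets the SD of the Prmt3f/f tumors was larger than the difference between the genotype means. The highest tumor was a median of 2.99-fold above the lowest for the 8 targets and 1.71-fold for all genes tested. Within the 3 Prmt3f/f tumors the medians were 2.84-fold and 1.44-fold, and within the 3 Prmt3LKO tumors 1.76-fold and 1.37-fold. Over the 6 tumors, *Nqo1* (6.89-fold), *Osgin1* (6.50-fold), *Abcc4* (4.59-fold) and *Srxn1* (3.55-fold) spanned the widest ranges, and *Keap1* (1.76-fold), *Nfe2l2* (1.61-fold) and *Hmox1* (1.40-fold) the narrowest. Control replicate 66 was lowest for 6 of the 8 targets (*Nqo1*, *Gclc*, *Gclm*, *Srxn1*, *Txnrd1* and *Abcc4*), beside 15.3% of all genes. Control replicate 7 was highest for 3 of the 8 (*Nqo1*, *Gclc* and *Srxn1*), beside 23.7% of all genes, and Prmt3LKO replicate 93 was highest for *Txnrd1* and *Abcc4*. The mean log2 CPM of the 8 targets, each centered on its mean over the 6 tumors, was 0.60, -0.62 and -0.35 in Prmt3f/f tumors and 0.28, 0.39 and -0.29 in Prmt3LKO tumors. The highest and the lowest tumor on this scale were both controls.

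The comparison of genotypes for the targets moved with single tumors of either genotype. Without replicate 7, *Nqo1* had a log2 fold change of 0.85, *Srxn1* of 0.93 and *Abcc4* of 1.32, and these 3 of the 10 genes were higher at an unadjusted p under 0.05, beside 3.99% of the 14150 genes then tested. None of the 3 passed the adjusted threshold, with adjusted p of 0.529, 0.512 and 0.536 in edgeR. Replicate 7 was the highest control for each of the 3, so leaving it out raises their fold changes by that choice alone. The median of the 8 targets was then 0.61, with 7 above 0. Without replicate 66 it was 0.004, with 4 above 0, and without Prmt3LKO replicate 93 it was 0.08, also with 4 above 0. Leaving out any of the other 3 tumors gave 0.10 to 0.40, with 5 or 6 above 0.

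Markers of the hepatocyte zones differed between the same tumors. The summed level of 9 pericentral markers was 286.8 CPM in control replicate 7 and 401.5 CPM in Prmt3LKO replicate 93, against 1319 to 1689 CPM in the other 4 tumors. The 7 periportal markers summed to 2230 and 1707 CPM in these 2 tumors and to 4018 to 6757 CPM in the others. Among the pericentral markers, *Cyp2e1*, the cytochrome P450 that activates CCl4, was at 166.1, 1057 and 1330 CPM in Prmt3f/f tumors and at 1171, 244.1 and 1165 CPM in Prmt3LKO tumors. *Glul*, glutamine synthetase, was at 51.1, 162.4 and 168.9 CPM in Prmt3f/f tumors and at 124.8, 82.0 and 109.5 CPM in Prmt3LKO tumors. Replicates 7 and 93 were thus the tumors with the lowest summed levels of both zones, and they were high for *Srxn1* and *Abcc4*. Abundant genes weigh most in such sums, and not every marker followed them. *Hal* (periportal) was at 168.4 CPM in control replicate 7 and at 101.1 CPM in control replicate 66. *Tbx3* (pericentral) was highest in Prmt3LKO replicate 93, at 8.57 CPM. Both are named after their values were seen. The part of zonation in the *Srxn1* and *Abcc4* values was not tested. Neither zone list had a gene at an unadjusted p under 0.05 between genotypes, with a median log2 fold change of -0.13 for the pericentral and 0.14 for the periportal list.

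Partners and other regulators of NRF2 were read from a list of 18 genes, of which 16 were tested. They had a median log2 fold change of 0.05, and at an unadjusted p under 0.05, 2 of the 16 were lower and 0 were higher, beside 4.37% and 2.2% of all genes. *Sqstm1*, the autophagy receptor p62 that binds KEAP1, was at 378.1, 303.6 and 413.1 CPM in Prmt3f/f tumors and at 374.0, 457.5 and 382.0 CPM in Prmt3LKO tumors. Its groups overlapped, with a log2 fold change of 0.15. *Bach1*, a repressor that competes with NRF2 for response elements, was at 70.9, 77.6 and 95.5 CPM in Prmt3f/f tumors and at 122.1, 98.9 and 50.6 CPM in Prmt3LKO tumors. It was both highest and lowest in Prmt3LKO tumors, with a log2 fold change of 0.15.

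*Prkcd*, a protein kinase C reported to phosphorylate NRF2, was at 20.7, 25.3 and 20.2 CPM in Prmt3f/f tumors and at 16.0, 18.8 and 16.0 CPM in Prmt3LKO tumors. Every Prmt3LKO tumor was below every control, with a log2 fold change of -0.38 (adjusted p = 0.743 in edgeR). The other regulator at an unadjusted p under 0.05, *Nfe2l1*, a related transcription factor known for proteasome genes, is named after its values were seen. *Nfe2l1* was at 23.6, 43.1 and 122.1 CPM in Prmt3f/f tumors and at 23.5, 23.8 and 31.5 CPM in Prmt3LKO tumors. Control replicate 71 was far above the others, the groups overlapped, and the log2 fold change was -1.26 (adjusted p = 0.756 in edgeR).

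In a wider set of 49 NRF2 target genes, of which 48 were tested, many were again lowest in control replicate 66 or highest in control replicate 7. At an unadjusted p under 0.05, 3 of the 48 were higher in Prmt3LKO tumors and 0 were lower (beside 2.2% and 4.37% of all genes), with a median log2 fold change of 0.12 and 33 above 0. Control replicate 66 was lowest for 30 of the 48 (62.5%, beside 15.3% of all genes) and control replicate 7 was highest for 22 (45.8%, beside 23.7%). In the group for glutathione, thioredoxin and NADPH, replicate 66 was lowest for 11 of 12 genes and replicate 7 highest for 6. Replicate 66 was lowest for 16 of the 27 conjugation and carbonyl genes and for 3 of the 9 transport, heme and iron genes. Without replicate 7, 17 of the 48 were higher at an unadjusted p under 0.05, beside 3.99% of all genes, and without replicate 66, 1 of 49, beside 1.28%. Replicate 7 was the highest tumor for 22 of the 48 and replicate 66 the lowest for 30. Leaving either out therefore moves the fold changes in a direction set by that choice, and these counts do not test the genotype.

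**Figure D3:**
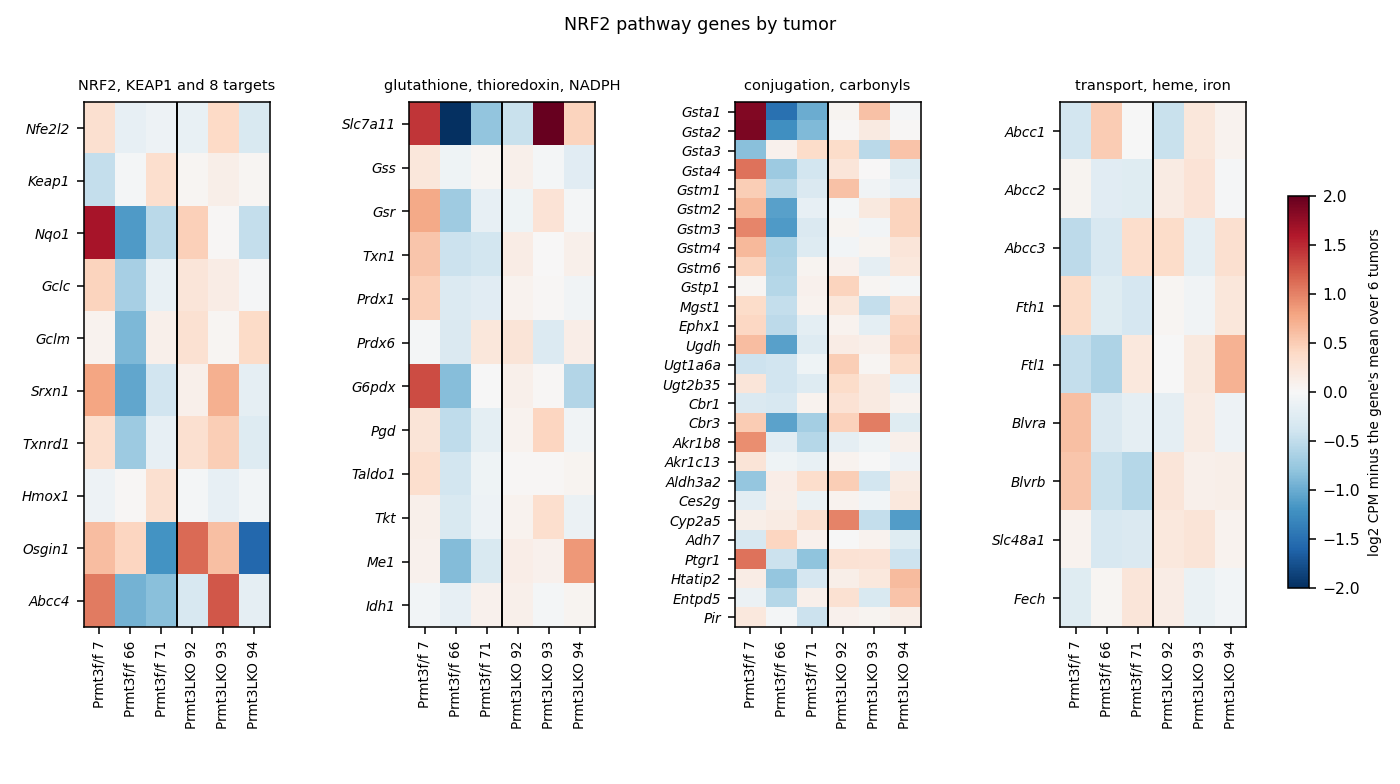
Log2 CPM minus the mean of the gene over 6 tumors for the 10 genes and 48 further NRF2 targets, 1 column per tumor and the genotypes parted by a line. Colors saturate at 2 in either direction. The second column, Prmt3f/f replicate 66, is the lowest for 6 of 8 member targets and 30 of 48 further targets.

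In the glutathione group, 1 of 12 tested genes was higher at an unadjusted p under 0.05 and 0 were lower, beside 2.2% and 4.37% of all genes (median log2 fold change 0.08). That gene, *Me1*, the cytosolic malic enzyme that makes NADPH, was chosen after its values were seen. *Me1* was at 79.4, 41.0 and 59.9 CPM in Prmt3f/f tumors and at 81.7, 78.8 and 135.5 CPM in Prmt3LKO tumors. The log2 fold change was 0.72 (adjusted p = 0.750 in edgeR), and Prmt3LKO replicate 94 was far above the others. *Slc7a11*, the cystine importer xCT that feeds glutathione synthesis, was at 69.4, 2.99 and 14.9 CPM in Prmt3f/f tumors and at 18.9, 143.0 and 35.3 CPM in Prmt3LKO tumors. It spanned 47.9-fold over the tumors, again with replicates 7 and 93 highest and replicate 66 lowest, and its log2 fold change of 1.18 had an SE of 1.08 (adjusted p = 0.932 in edgeR).

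Among the 27 conjugation and carbonyl genes, 2 were higher at an unadjusted p under 0.05 and 0 were lower, beside 2.2% and 4.37% of all genes (median log2 fold change 0.15). *Ugt1a6a*, a glucuronosyltransferase, was at 79.3, 81.2 and 100.5 CPM in Prmt3f/f tumors and at 148.5, 109.2 and 136.4 CPM in Prmt3LKO tumors. Every Prmt3LKO tumor was above every control, with a log2 fold change of 0.59 (adjusted p = 0.606 in edgeR). *Ugt1a6a* shares its last exons with the other genes of the Ugt1a locus, and 11 annotated genes with counts overlap it, so the assignment of its reads is uncertain. The other, *Htatip2*, an oxidoreductase chosen after its values were seen, had a log2 fold change of 0.61 (adjusted p = 0.750 in edgeR) and groups that overlapped.

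The glutathione S-transferases, which conjugate electrophiles to glutathione, were uneven among the controls, not all in the same order. *Gsta1* was at 53.9, 5.27 and 7.49 CPM in Prmt3f/f tumors and at 15.5, 22.4 and 14.6 CPM in Prmt3LKO tumors. Control replicate 7 was high and the other controls were below each Prmt3LKO tumor, with a log2 fold change of -0.34. *Gstm1* was at 3199, 1562 and 1869 CPM in Prmt3f/f tumors and at 3420, 2188 and 2038 CPM in Prmt3LKO tumors, with a log2 fold change of 0.21. Control replicates 66 and 71 were the lowest tumors. *Gsta3*, named after its values were seen, ran the other way among the controls, at 256.4, 483.6 and 589.1 CPM in Prmt3f/f tumors and at 590.8, 313.6 and 678.0 CPM in Prmt3LKO tumors, with replicate 7 the lowest of all. Members of the Gsta and Gstm families have near-identical copies, and the split of their reads is uncertain.

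In the group for transport, heme and iron, the median log2 fold change was 0.22. At an unadjusted p under 0.05 in edgeR, 0 of 9 genes were higher and 0 were lower, beside 2.2% and 4.37% of all genes. DESeq2 had 1 of the 9 higher, and its share over all genes is not given here. *Slc48a1*, the heme transporter HRG1 of endosomes, was at 265.3, 203.9 and 206.4 CPM in Prmt3f/f tumors and at 292.1, 303.5 and 266.6 CPM in Prmt3LKO tumors. Its groups did not overlap, by a margin of little more than 1 CPM, and the log2 fold change was 0.35 (adjusted p = 0.775 in edgeR). Over the 48 genes, 2 had groups that did not overlap and were higher in Prmt3LKO tumors, *Ugt1a6a* and *Slc48a1*, beside 5.56% of all genes.

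*Nqo1* and *Ugt1a6a* also belong to the battery of the aryl hydrocarbon receptor, a sensor of planar aromatic compounds. Of 8 tested genes in a list of 10 for this receptor, 1 (*Ugt1a6a*) was higher and 0 were lower at an unadjusted p under 0.05, beside 2.2% and 4.37% of all genes, with a median log2 fold change of -0.05. *Cyp1a1*, its most inducible target, was at 2.40, 1.17 and 1.30 CPM in Prmt3f/f tumors and at 3.83, 1.58 and 3.22 CPM in Prmt3LKO tumors. *Tiparp*, another direct target, was at 16.0, 14.2 and 12.5 CPM in Prmt3f/f tumors and at 8.69, 20.7 and 10.2 CPM in Prmt3LKO tumors. Both had overlapping groups. *Cyp1a2*, a more abundant gene of this list, is named after its values were seen. It was at 308.6, 132.7 and 257.4 CPM in Prmt3f/f tumors and at 297.4, 87.6 and 315.0 CPM in Prmt3LKO tumors. Control replicate 7, the highest tumor for *Nqo1*, was the highest control for *Cyp1a1*, *Tiparp* and *Cyp1a2* and the highest tumor for none of them. The rest of the list went otherwise, and 3 further genes are named after their values were seen. *Ugt1a6a* was lowest of all 6 tumors in replicate 7. *Cyp1b1* was at 5.08 CPM there and at 6.39 CPM in control replicate 66. *Ahr* (22.6 CPM) and *Arnt* (13.2 CPM) were lowest among the controls in replicate 7. The part of this receptor in the *Nqo1* values was not tested.

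The likeness of profiles was measured as the root mean square difference of log2 CPM over the 6 tumors, each gene centered on its own mean, and is a description of these libraries. Among 12778 genes with a mean of at least 1 CPM, the genes nearest to *Nqo1* included *G6pdx* (0.32), *Gsta4* (0.32), *Gsta2* (0.33) and *Ptgr1* (0.41), where a flat gene would be at 0.89. *G6pdx*, the first enzyme of the pentose phosphate pathway, was at 89.1, 19.9 and 35.7 CPM in Prmt3f/f tumors and at 38.7, 36.7 and 24.0 CPM in Prmt3LKO tumors. It overlaps *Ikbkg* in the annotation, and the use of strand in counting is not given in the sources used here. These 4 genes are in the lists of NRF2 targets. They were at ranks 1, 2, 3 and 5 by likeness when predicted genes and members were passed over. With no gene passed over, *G6pdx* was at rank 2 of 12777. On that scale *Srxn1* was the nearest member to *Nqo1* at rank 28, followed by *Gclc* at 120, *Txnrd1* at 201 and *Abcc4* at 465. The others were farther off, with *Nfe2l2* at rank 1386, *Gclm* at 1944, *Hmox1* at 7841, *Osgin1* at 8413 and *Keap1* at 10364. The wider target lists, with 48 tested genes, ran from rank 2 for *G6pdx* to rank 12280 for *Slc7a11*, with *Gsta3* at 11959. These lists were chosen with earlier results of these data known, so the near genes do not set the lists apart.

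**Figure D4:**
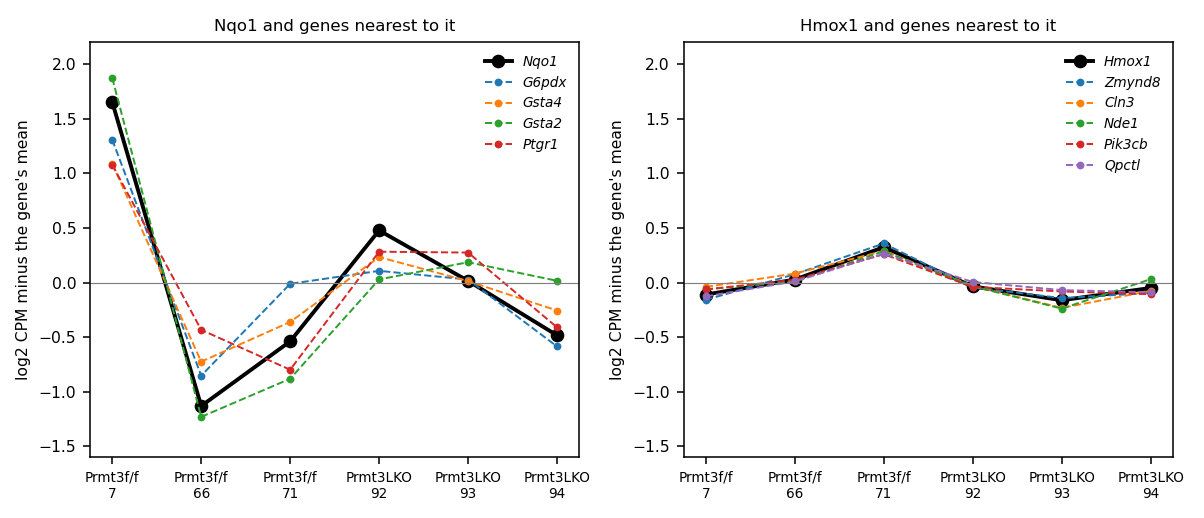
Centered log2 CPM in each tumor for *Nqo1* and 4 of the 5 genes nearest to it, and for *Hmox1* and the 5 genes nearest to it. Predicted genes and members were passed over. Lines only join the values of 1 gene, since tumors have no order. The profiles in the *Nqo1* panel are highest in Prmt3f/f replicate 7 and lowest in replicate 66 or 71.

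With predicted genes and members passed over, the genes nearest to *Hmox1* were *Zmynd8* (0.037), *Cln3* (0.049), *Nde1* (0.052), *Pik3cb* (0.052) and *Qpctl* (0.052). A flat gene would be at 0.16. None of these 5 is in the NRF2 lists, and the small values go with the narrow range of *Hmox1*. Within the 10 genes, the closest pair was *Gclc* and *Txnrd1* at 0.18, followed by *Keap1* and *Hmox1* at 0.20. *Osgin1* was the farthest from each of the other genes but *Nqo1*, whose farthest was *Keap1* at 1.08, and the nearest to *Osgin1* was *Txnrd1* at 0.90.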

How the data were processed

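RNA-seq libraries of 3 Prmt3f/f and 3 Prmt3LKO liver tumors were used. Paired-end reads had been mapped by the authors to GRCm38 (HISAT2 2.0.4). The submitters' processing notes also name StringTie 1.3.0 and bcl2fastq 2.19. The counting tool, annotation and use of strand are not given in the sources used here. The deposited table holds read counts, which are whole numbers and not normalized, and FPKM values, which the authors made from count, gene length and total count; where no tumor had under 100 counts (8975 genes), the gene length implied by both was the same (largest ratio 1.00). Of 12 value columns, 0 were left unused. Of 34745 genes, 14468 had no count, and 59 symbols had more than 1 identifier, of which the one with the largest count was used in lists.

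Counts were filtered with filterByExpr (minimum count 10, minimum total 15), scaled by TMM and fitted with edgeR 4.0.16 (R 4.3.3), whose quasi-likelihood test was adjusted by Benjamini-Hochberg over 13892 genes. Calls required an adjusted p under 0.05 and a fold change of 2 or 0.5. A two-sided exact permutation test of log2 CPM (prior count 2) was added for single genes. No list was tested as a set. The depth was 18440244 to 27976598 counts per tumor, and both depth and the 3 tumors per group limit the precision.

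The 10 genes and all lists were chosen with earlier results of these data known. Named were the 10 genes, *Prmt3*, *Sqstm1*, *Bach1*, *Slc7a11*, *Gsta1*, *Gstm1*, up to 4 genes per NRF2 list whose groups do not overlap, a few markers of macrophages, zonation and the aryl hydrocarbon receptor, and the 5 genes nearest to *Nqo1* and to *Hmox1* with predicted genes and members passed over, of which the fourth by likeness to *Nqo1* is not reported here. Others are marked as chosen after their values were seen. Alternatives were the exact test of edgeR, DESeq2 1.42.0, limma-voom (limma 3.58.1), log2(FPKM + 1) in limma, scaling without TMM, no filter, a filter at a mean of 1 CPM, and leaving out single tumors. The pipeline was tested on simulated data drawn for this comparison: of 197 genes changed 4-fold among 13716 tested, the quasi-likelihood test recovered 78.2%, with 16 false calls. DESeq2 recovered 90.9% with 39 false calls, the exact test of edgeR 92.4% with 44 and limma-voom 76.6% with 11. Changes as small as those of the 10 genes, with log2 fold changes from -0.46 to 0.42, were not simulated.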

Additional observations from a re-analysis of the deposited data

How the results depend on the processing

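No paired analysis was possible because the groups share no replicate numbers. In all 13 alternatives, 0 of the 10 genes were called at an adjusted p. Over all genes, the calls rose from 0 in either direction to 43 lower and 9 higher with DESeq2, to 35 lower and 5 higher with the exact test of edgeR, and to 2 lower with no filter. Leaving out 1 tumor gave 0 to 3 of the 10 genes higher at an unadjusted p under 0.05, the 3 being *Nqo1*, *Srxn1* and *Abcc4* without Prmt3f/f replicate 7. Genes at an unadjusted p under 0.05 and higher numbered 305, against 565 without replicate 7 and 181 without replicate 66.

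The log2 fold change changed sign for several genes. Without Prmt3f/f replicate 7 it was 0.14 for *Nfe2l2*, -0.11 for *Keap1* and 0.85 for *Nqo1*. Without Prmt3f/f replicate 66 it was -0.047 for *Gclc* and -0.053 for *Srxn1*, and without replicate 71 it was -0.091 for *Osgin1*. Without Prmt3LKO replicate 92 it was 0.056 for *Nfe2l2* and -0.24 for *Osgin1*, without replicate 93 it was -0.015 for *Srxn1* and -0.31 for *Abcc4*, and without replicate 94 it was 0.11 for *Nfe2l2*. In limma-voom *Nqo1* was at 0.0057. The cause was not tested. Over the 6 fits without 1 tumor the log2 fold change ranged from -0.26 to 0.14 for *Nfe2l2*, -0.11 to 0.31 for *Keap1*, -0.88 to 0.85 for *Nqo1*, -0.047 to 0.51 for *Gclc*, -0.053 to 0.93 for *Srxn1*, -0.24 to 0.75 for *Osgin1* and -0.31 to 1.32 for *Abcc4*. *Gclm*, *Txnrd1* and *Hmox1* kept their sign in all 13 alternatives. *Prmt3* passed the adjusted threshold with DESeq2 and the exact test of edgeR, at a log2 fold change of -1.55 in both. With 3 tumors in each group, the intervals of *Nqo1*, *Gclm*, *Srxn1*, *Txnrd1*, *Osgin1* and *Abcc4* each include a 2-fold difference.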

Other observations

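Beyond the macrophage list, the other cell type lists were read in the same 6 tumors, where 4.37% of all genes were lower and 2.2% higher at an unadjusted p under 0.05 and 50.1% had a log2 fold change above 0. All 7 T cell markers had a negative log2 fold change in Prmt3LKO tumors (median -1.08, 4 lower at an unadjusted p under 0.05), as did the 4 tested of 5 neutrophil markers (median -1.57, 4 lower). Both lists were at low levels. The T cell markers summed to 30.1, 24.4 and 23.5 CPM in Prmt3f/f tumors and to 5.43, 17.2 and 10.9 CPM in Prmt3LKO tumors. *Cd3e*, named after its values were seen, had 3 counts in Prmt3LKO replicate 92. The neutrophil markers summed to 13.1 to 25.4 CPM in Prmt3f/f tumors and to 6.63 to 8.57 CPM in Prmt3LKO tumors. Of 4 B cell markers, 0 were at an unadjusted p under 0.05 (median -0.43), and the same held for 6 endothelial markers (median -0.13) and 8 stellate cell and fibroblast markers (median -0.31), in edgeR. In the cholangiocyte list 1 of 5 was lower (median -0.69), with a summed level of 4103 CPM in Prmt3f/f replicate 7 against 206.4 to 1016 CPM in the other tumors. In the liver tumor marker list 1 of 6 was lower (median -0.58). The hepatocyte list had 0 of 7 at an unadjusted p under 0.05 (median 0.22), with a summed level of 145541 to 217401 CPM. Their part in the values of the NRF2 pathway genes was not tested.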
